A study of Homo sapiens with 9 samples.

Results

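The primitive streak regulators described here are 10 genes, T (the brachyury gene, now TBXT), MIXL1, EOMES, GSC, MESP1, LHX1, EVX1, TBX6, FGF8 and FGF17. They were chosen by gene symbol, and each symbol was carried by 1 probe set alone, so that 10 of 29096 gene probe sets are covered. Signals came from 9 Affymetrix whole-transcript arrays of the human embryonic stem cell line H9, an established line, all sampled at day 3. The 9 arrays form 3 groups of 3 samples: untreated cells with no siRNA, cells transfected with a non-silencing siRNA, and cells transfected with an siRNA against TCF7L1. H9 is a single line, and whether the replicates came from separate cultures is not stated in the labels, so the p-values measure only the spread between these samples. In such bulk samples fewer cells that carry a transcript and less of it per cell cannot be told apart.

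The primitive streak is the site where cells of the epiblast leave the epithelial layer at gastrulation and take on a mesoderm or endoderm fate. Nodal, Wnt, BMP and FGF signals induce it, T-box and homeobox transcription factors carry out the change of fate, and human pluripotent cells pass through a similar stage when they are driven towards mesendoderm. TCF7L1 binds DNA at TCF/LEF sites and mainly represses the targets of Wnt signalling in pluripotent cells, and T is a classic target of Wnt signalling at such sites. The study asked which genes are TCF7L1 targets in these cells.

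Promoter sequence was examined for the letters that TCF/LEF factors recognise, CTTTGAA or CTTTGAT on either strand, and for TGTGGATT on either strand, a motif of FOXH1, the DNA-binding partner of the SMAD proteins in Nodal signalling. RefSeq windows (build GRCh38.p14, 250 bases before to 50 after the start site) were at hand for 6 of the 10 genes, in 7 windows. Of these, 1 of 2 windows of T and the window of MIXL1 held a TCF/LEF match. The windows of EOMES, GSC, EVX1 and TBX6 held no match to either motif, which says only that these letters are not in those windows. Among all 35116 windows of the same 300 bases, 6.86% held a TCF/LEF match and 0.817% held the FOXH1 letters. The 250 bases before the start site are shown for T and MIXL1 because they carry the matches, which are in capitals. They lie on the minus strand at chr6:166167852-166168101 for T and on the plus strand at chr1:226223414-226223663 for MIXL1, each written 5′ to 3′ along the gene.
T: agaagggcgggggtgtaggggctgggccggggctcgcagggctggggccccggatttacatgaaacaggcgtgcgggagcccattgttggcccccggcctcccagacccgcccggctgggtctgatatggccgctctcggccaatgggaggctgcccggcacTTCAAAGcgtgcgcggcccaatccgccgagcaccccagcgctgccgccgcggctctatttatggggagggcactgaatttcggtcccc
MIXL1: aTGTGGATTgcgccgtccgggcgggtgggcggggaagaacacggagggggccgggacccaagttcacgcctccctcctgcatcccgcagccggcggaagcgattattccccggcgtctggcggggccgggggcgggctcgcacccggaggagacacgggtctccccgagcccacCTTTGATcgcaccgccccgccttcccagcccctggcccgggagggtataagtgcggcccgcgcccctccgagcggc
In T the capitals are CTTTGAA read on the opposite strand, beginning 88 bases before the start site. In MIXL1 the first capitals are the FOXH1 letters, beginning 249 bases before the start site, and the later ones are CTTTGAT, beginning 76 bases before it. A match is a description of the letters and not evidence of binding.

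The siRNA against TCF7L1 lowered its own transcript, and the cells kept the markers of embryonic stem cells. The TCF7L1 signal was 1473, 1842 and 1667 in untreated samples, 1709, 1703 and 1625 in non-silencing samples, and 388.8, 345.8 and 352 in knockdown samples, which left 21.6% of the level with the non-silencing siRNA. All 10 stem cell markers, among them POU5F1, SOX2 and NANOG, lay above background on all 9 arrays, with summed signals of 30490 to 31350, 29940 to 30970 and 30120 to 32080 in the 3 groups. Background here is the 95th percentile of 412 olfactory receptor probe sets on the same array, which ran from 69.8 to 102 over the arrays. Of 8 fibroblast markers COL1A1, COL1A2, THY1 and PDGFRB were above it on every array, COL3A1 on some, and DCN, LUM and FAP on none. The fibroblast sums were 3341 to 3518, 3078 to 3484 and 2740 to 3115. Of 6 neural ectoderm markers SOX1, SIX3 and LHX2 were above background on all 9 arrays, and PAX6, ZIC1 and DLX5 on none. Of 8 trophoblast and amnion markers CGB, KRT7, TFAP2A and VTCN1 were above it on all 9 arrays, and CGA, GCM1, HAND1 and ISL1 on none. The sums were 1775 to 1902, 1713 to 1964 and 1848 to 1945 for neural ectoderm, and 803.3 to 889.2, 817.5 to 1016 and 762.5 to 971.4 for trophoblast and amnion.

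Reducing TCF7L1 was not followed by a detectable change of any streak regulator. None of the 10 passed an adjusted p of 0.05 by limma between the 2 siRNAs, where 0.0263% of 22784 tested probe sets did. None had an unadjusted p under 0.05 by limma, where 2.58% did. No member's groups were free of overlap in this comparison, against 4.99% of the probe sets tested (1.88% higher and 3.12% lower). On the log2 scale 8 of the 10 differences lay above 0 and 2 below, with a median of 0.03, beside 47.8% above 0 and a median of -0.01 over all probe sets tested. That median was -0.07 without replicate 1 of the non-silencing group and 0.17 without replicate 1 of the TCF7L1 group, so its sign rested on single arrays. All 10 had an adjusted p of 1.0 by limma. An exact permutation test of 3 samples against 3 cannot go below p = 0.1. The 95% intervals of the 10 differences reached from a fold of 0.728 to a fold of 1.7, so that differences within those limits are not excluded by these arrays. Differences are log2(signal + 16), which understates the change of dim genes, so for members near background these folds do not limit the change of transcript. Signals of different probe sets depend on their probes, and no order of level between genes is drawn from them.

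**Figure D1:**
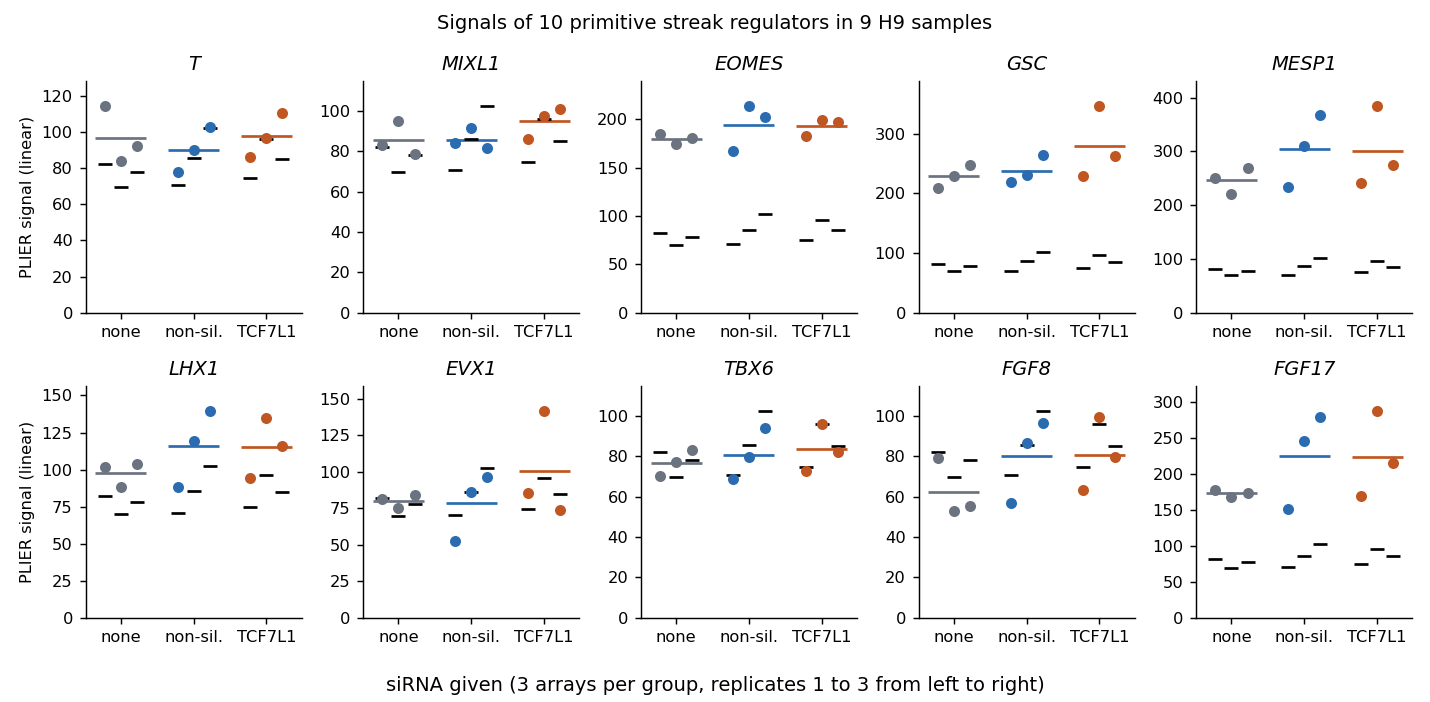
PLIER signal on a linear axis from 0 for each regulator, with 1 point per array, a coloured bar at the group mean and a black dash at that array's 95th percentile of olfactory receptor probe sets. EOMES, GSC, MESP1 and FGF17 lie well above the dashes, and LHX1 lies above them by a smaller margin. T, MIXL1, EVX1, TBX6 and FGF8 lie on or near the dashes in all 3 groups.

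The T-box genes encode transcription factors that act in succession in the streak. T drives the formation of posterior mesoderm and notochord, and its probe set of 28 probes spans 166570795 to 166582131 on the minus strand of chromosome 6 (build 37, as are the positions that follow). Its signals were 114.5, 83.85 and 92.33 without siRNA, 77.95, 90.09 and 102.6 in the non-silencing group, and 85.99, 96.74 and 110.7 in the TCF7L1 group. The highest value of T belonged to an untreated sample and the 3 groups overlapped. T was above background on all 9 arrays by a narrow margin, smallest on replicate 3 of the non-silencing group, where the background was 102.5. The difference between the siRNAs was 0.10 (SE 0.13, 95% interval -0.19 to 0.391).

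EOMES, which is needed for definitive endoderm and for cells to leave the streak, was measured clearly above background. Its probe set lies at 27757868 to 27763803 on the minus strand of chromosome 3 and holds 37 probes, the most of the 10. EOMES signals were 184.3, 174.3 and 180.6 without siRNA, 166.7, 213.9 and 202.2 in the non-silencing group, and 182.5, 199.3 and 197.6 in the TCF7L1 group. The values after TCF7L1 siRNA fell inside the range of the non-silencing samples, and the difference was -0.0019 (SE 0.10, 95% interval -0.227 to 0.223). TBX6, which directs paraxial mesoderm and represses the neural gene Sox2 in mouse, lies at 30097082 to 30103208 on the minus strand of chromosome 16. Its signals were 70.49, 77 and 83.19, then 68.63, 79.56 and 94.25, then 72.79, 96.07 and 82.24 in the same order of groups. TBX6 exceeded background on 3 of 9 arrays, on none of those in the non-silencing group, and the siRNA groups differed by 0.04 (SE 0.12).

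The homeobox genes showed the largest differences among the 10, in GSC and EVX1, and in both the value rested on single arrays. GSC, the goosecoid gene of the anterior streak and organizer, lies at 95234560 to 95236499 on the minus strand of chromosome 14. Its signals were 209.6, 229.8 and 248.4 without siRNA, 218.7, 230.8 and 264.8 in the non-silencing group, and 230, 346.8 and 262.1 in the TCF7L1 group. Replicate 2 of the TCF7L1 group stood above all other samples, while the other two lay within the range of the non-silencing samples. The difference was 0.20 (SE 0.14, 95% interval -0.108 to 0.514) and 0.05 without that array. EVX1, an even-skipped homologue of the posterior streak, lies at 27282164 to 27286192 on the plus strand of chromosome 7. EVX1 signals were 81.33, 74.87 and 83.98, then 52.71, 85.89 and 96.74, then 85.5, 141.6 and 73.88. The same TCF7L1 array was the high one, and replicate 1 of the non-silencing group was the low one. The difference of EVX1 was 0.29 (SE 0.22, 95% interval -0.186 to 0.763), 0.05 without the former and 0.07 without the latter, and it exceeded background on 5 of 9 arrays.

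MIXL1, a homeobox gene induced by Nodal and BMP signals in the streak, varied little between arrays, with its highest value 1.29 times its lowest. It lies at 226411319 to 226414064 on the plus strand of chromosome 1. Its signals were 82.97, 94.73 and 78.46 without siRNA, 84.18, 91.61 and 81.45 in the non-silencing group, and 85.93, 97.66 and 100.8 in the TCF7L1 group. The groups overlapped, although the 2 highest values belonged to TCF7L1 siRNA, and the difference was 0.12 (SE 0.10, 95% interval -0.096 to 0.34). MIXL1 was above background on 8 of 9 arrays. LHX1, a LIM homeobox gene needed for head formation in mouse, lies at 35294499 to 35300494 on the plus strand of chromosome 17. LHX1 signals were 101.5, 88.55 and 103.9, then 88.31, 119.1 and 139.5, then 94.57, 134.9 and 116.1. Both siRNA groups held a low and a high sample, their means were 115.6 ± 25.8 and 115.2 ± 20.2 (SD, n = 3), and LHX1 was above background on all 9 arrays.

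MESP1 encodes a basic helix-loop-helix factor of the earliest cardiac and cranial mesoderm. Its probe set lies at 90293106 to 90294543 on the minus strand of chromosome 15. MESP1 signals were 250.5, 221.4 and 268.3 without siRNA, 234, 309.9 and 368.3 in the non-silencing group, and 241.9, 384.5 and 273.8 in the TCF7L1 group. The siRNA groups spread widely over the same range, and the difference between them was -0.02 (SE 0.18, 95% interval -0.425 to 0.381). It stood above background on all 9 arrays.

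FGF8 and FGF17 encode closely related secreted ligands of 1 FGF subfamily, and in mouse Fgf8 is needed for cells to move away from the streak. FGF8 lies at 103529887 to 103535827 on the minus strand of chromosome 10, and FGF17 at 21899937 to 21906320 on the plus strand of chromosome 8. FGF8 signals were 79.05, 53.13 and 55.21 without siRNA, 57.04, 86.59 and 96.59 in the non-silencing group, and 63.25, 99.73 and 79.63 in the TCF7L1 group. FGF8 was the member least separated from background, above it on 2 of 9 arrays and on none without siRNA. FGF17 signals were 177.3, 167 and 173.7, then 150.6, 244.7 and 278.1, then 169.2, 286.8 and 214.8. They were even in the untreated cells, and each siRNA group held 1 sample near that level or below it and 2 above it. FGF17 was above background on all 9 arrays. The differences between the siRNAs were 0.02 (SE 0.19) for FGF8 and 0.0063 (SE 0.21) for FGF17.

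Against background, T, EOMES, GSC, MESP1, LHX1 and FGF17 were above it on all 9 arrays, as were 50.8% of all gene probe sets. MIXL1, EVX1, TBX6 and FGF8 were not above it on every array. The count above background on all arrays of a group was 7 without siRNA, 6 with the non-silencing siRNA and 7 in the TCF7L1 group. All 10 exceeded the 75th percentile of the olfactory receptor probe sets on every array. EVX1, TBX6 and FGF8 were not above background on 4 or more arrays each.

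The signals of most regulators moved with the spread of the array they were measured on. The interquartile range of log2 signals over all probe sets of an array ran from 2.95 to 3.28, from 3.16 to 3.26 without siRNA, from 2.95 to 3.28 with the non-silencing siRNA and from 2.95 to 3.22 in the TCF7L1 group. The narrowest arrays were replicate 2 of the TCF7L1 group and replicate 3 of the non-silencing group. Of the 10 regulators 6 were highest on the former and 6 were lowest on replicate 1 of the non-silencing group, the widest array. The median of the olfactory receptor probe sets moved the same way, from 18.9 on the widest array to 27.8 on replicate 2 of the TCF7L1 group. All 10 members correlated negatively with array spread over the 9 arrays, and 42% of all tested probe sets did, with a median r of 0.265.

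The closest relations were those of FGF17 and LHX1. FGF17 had r = -0.979 (exact permutation p = 2.76e-06, the smallest that 9 arrays can give; adjusted p = 2.76e-05 over 10 relations) and rho = -1.0 (exact permutation p = 5.51e-06; adjusted p = 5.51e-05), with r = -0.943 without the 2 arrays farthest from the median spread. LHX1 had r = -0.987 (exact permutation p = 3.03e-05; adjusted p = 0.000151) and rho = -0.967 (exact permutation p = 0.000165; adjusted p = 0.00055), with r = -0.975 without those arrays. Of all tested probe sets 0.382% had a lower r than FGF17 and 0.0702% a lower r than LHX1, with 0.996% for MESP1 and 3.55% for FGF8. MESP1 (r = -0.968, rho = -0.967, adjusted exact permutation p = 0.00034 and 0.00055) and FGF8 (r = -0.941, rho = -0.917, adjusted exact permutation p = 0.00062 and 0.00262) followed, with r = -0.889 and -0.905 without the 2 arrays.

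The other 6 members ranged from a close relation in EOMES to none that passed in T and MIXL1. EOMES had r = -0.833 and rho = -0.917 (adjusted exact permutation p = 0.00807 and 0.00262), and r = -0.95 without the 2 arrays. TBX6 (r = -0.861, rho = -0.783, adjusted exact permutation p = 0.0065 and 0.0267), EVX1 (r = -0.786, rho = -0.767, adjusted exact permutation p = 0.0065 and 0.0267) and GSC (r = -0.747, rho = -0.767, adjusted exact permutation p = 0.0156 and 0.0267) fell to r = -0.531, -0.536 and -0.372 without them, so that these relations rested largely on those 2 arrays. T (r = -0.554, rho = -0.667, adjusted exact permutation p = 0.138 and 0.0654) and MIXL1 (r = -0.233, rho = -0.183, adjusted exact permutation p = 0.534 and 0.644) did not pass. The share of tested probe sets with a lower r was 12.2% for TBX6, 14.7% for EOMES, 17.8% for EVX1, 20.0% for GSC, 27.1% for T and 35.8% for MIXL1, so that for these 6 an r of this size was common on the arrays. With 3 arrays a group no relation could be tested within a group.

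**Figure D2:**
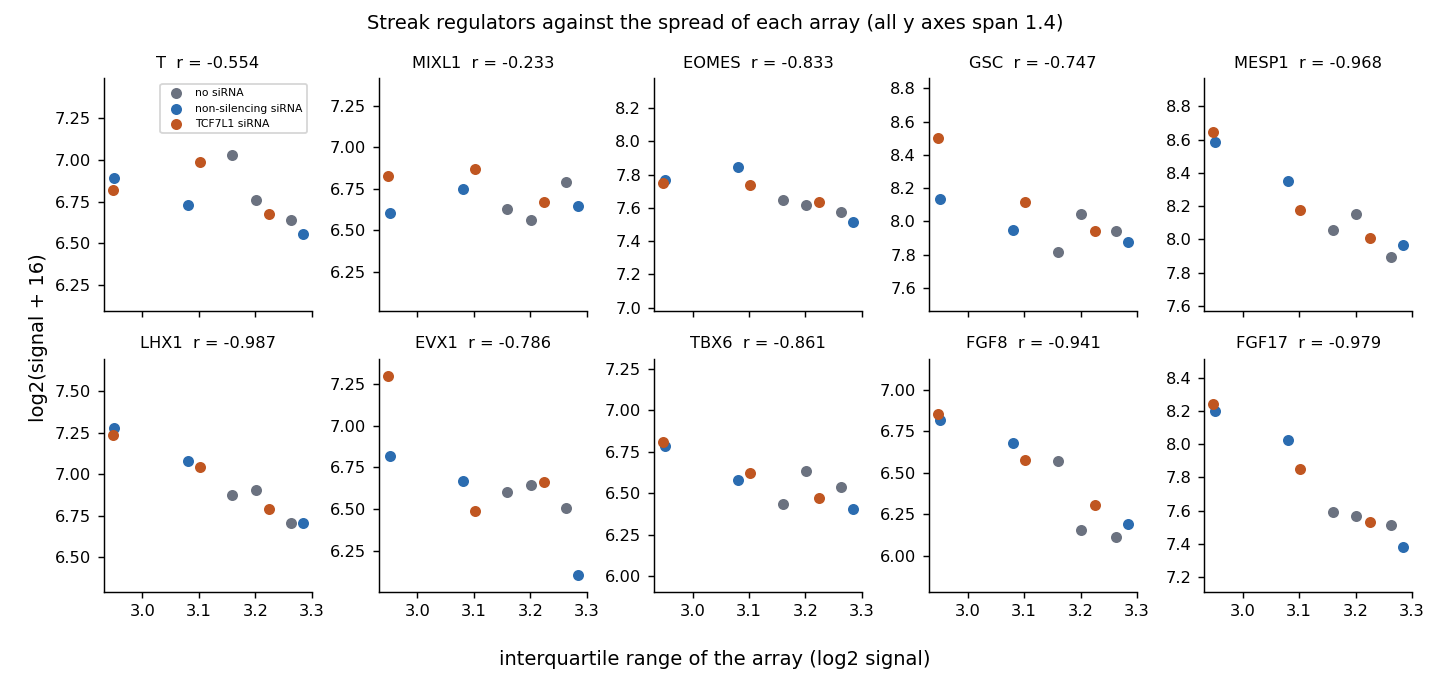
log2(signal + 16) of each regulator against the interquartile range of its array in log2 units, with 1 point per array coloured by group and all vertical axes of equal span. FGF17, LHX1, MESP1 and FGF8 fall along the array spread whatever the group (r from -0.987 to -0.941), and MIXL1 does not (r = -0.233).

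With array spread added to the limma model the intervals narrowed and the differences stayed small. The SE of the difference between the siRNAs was smaller for all 10 members, 0.0648 to 0.121 in place of 0.0989 to 0.215. The median of the 10 was 0.01 and 5 of 10 lay above 0, none with an adjusted p below 0.838. LHX1 then had -0.02 (95% interval -0.165 to 0.124), FGF17 -0.03 (-0.195 to 0.14), MESP1 -0.05 (-0.217 to 0.118) and EOMES -0.01 (-0.174 to 0.152). EVX1 had the largest value, 0.26 (-0.0111 to 0.526), followed by GSC at 0.19 (-0.0339 to 0.409), MIXL1 at 0.12 (-0.0731 to 0.315) and T at 0.09 (-0.136 to 0.311). The upper ends of the 10 intervals did not exceed a fold of 1.44 in the transformed signals. For members near background this does not limit the change of transcript. EVX1, which had the highest upper end, exceeded background on 5 of 9 arrays, TBX6 on 3 and FGF8 on 2. MIXL1 exceeded it on 8 of 9 arrays, and T on all 9 by a narrow margin. LHX1 also exceeded it on all 9, but by less than EOMES, GSC, MESP1 and FGF17. Array spread was measured on the same arrays, and this fit leaves fewer degrees of freedom.

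The non-silencing siRNA itself was compared with no siRNA, a comparison in which transfection and the control siRNA cannot be told apart. No member passed, and 0% of the 22784 probe sets tested did, with 2.41% at an unadjusted p under 0.05 and no member among them by limma. No member's groups were free of overlap, against 6.86% of probe sets (2.47% higher and 4.39% lower). The differences ran from -0.09 in T to 0.31 in FGF17, with 8 of 10 above 0 and a median of 0.08, beside 46.3% and -0.01 over all probe sets tested. FGF8 (0.28, SE 0.19), MESP1 (0.27, SE 0.18) and LHX1 (0.19, SE 0.16) came next to FGF17 (SE 0.21), at an adjusted p of 0.927 each, and with array spread in the model these 4 genes had 0.07, 0.06, 0.02 and 0.06 in that order. Without replicate 3 of the non-silencing group the 4 were 0.16, 0.12, 0.06 and 0.14, and without its replicate 1 they were 0.47, 0.43, 0.35 and 0.55. The median of the 10 was 0.05 and 0.18 in these cases. EVX1 had -0.05 (SE 0.22), and -0.28 (95% interval -0.571 to 0.00632) with array spread in the model.

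Against no siRNA, TCF7L1 siRNA gave differences above 0 in all 10 regulators, and none passed. The range was 0.02 in T to 0.32 in FGF17 with a median of 0.21, beside 45.8% above 0 and a median of -0.02 over all probe sets tested. Without replicate 2 of the TCF7L1 group the median was 0.08, with FGF17 at 0.13 and GSC at 0.10, and without its replicate 1 it was 0.31, with FGF17 at 0.49 and GSC at 0.38. The smallest adjusted p was 0.665 by limma, in GSC (0.25, SE 0.14), where 0.0527% of probe sets passed. No member's groups were free of overlap, against 14.4% of probe sets (6.43% higher and 7.93% lower), and none had an unadjusted p under 0.05 by limma, where 7.26% did. The interquartile range was 3.16 to 3.26 on the 3 arrays without siRNA and 2.95 to 3.22 in the TCF7L1 group. With array spread in the model the median was 0.01 with 6 of 10 above 0. This comparison shares samples with the other two.

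**Figure D3:**
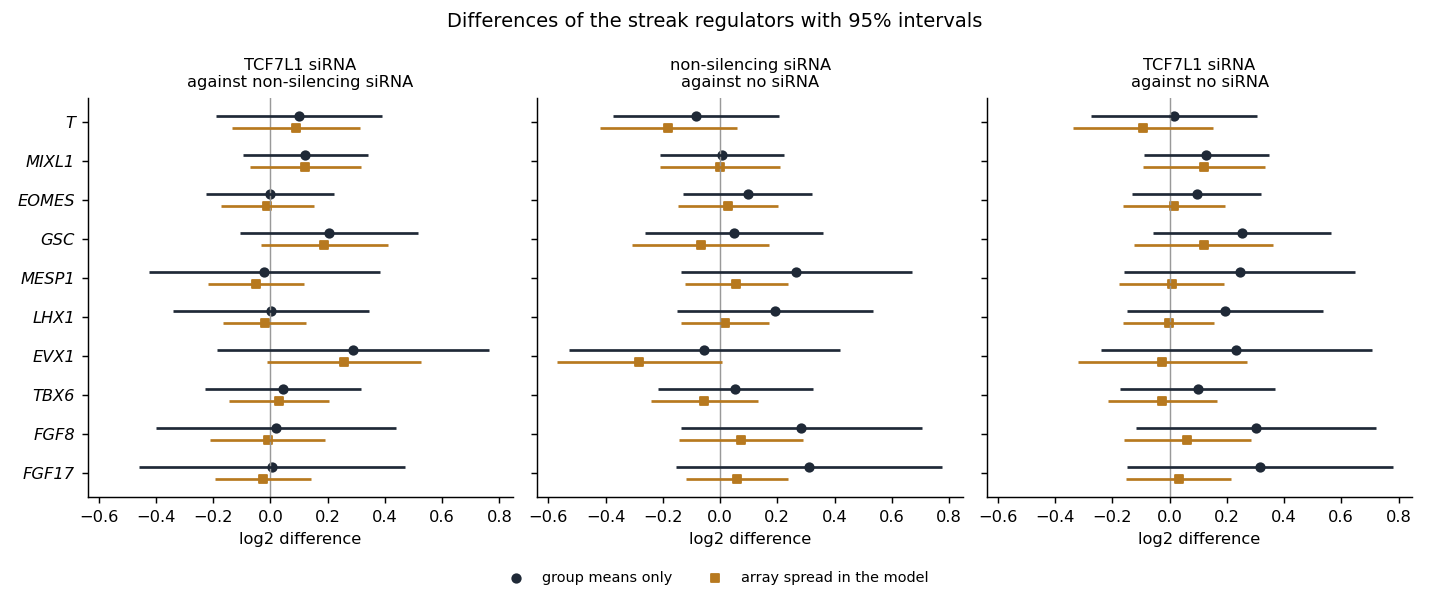
log2 difference of each regulator in the 3 comparisons with its 95% interval, from the model with group means only (dark circles) and with array spread added (ochre squares). Every interval includes 0, and the intervals are narrower with array spread in the model.

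Other genes of the streak programme were described by lists. Of 11 streak-inducing ligands and co-factors 1 passed between the siRNAs (beside 0.0263% of all probe sets tested), NODAL, the TGF-beta ligand that induces the streak. NODAL signals were 36.91, 37.56 and 31 without siRNA, 35.59, 35.11 and 29.16 in the non-silencing group, and 95.41, 95.68 and 95.28 in the TCF7L1 group. The TCF7L1 samples stood above all others, yet NODAL exceeded background on only 2 of 9 arrays, both of that group. The signals rose by 1.18 on the log2 scale between the siRNAs (SE 0.09, adjusted p = 0.00061 by limma, n = 3). Both control groups lay below background on every array, so these signals do not give the size of the rise in transcript. With each control array set to its background, the mean log2 difference was 1.1-fold against the non-silencing siRNA and 1.2-fold against no siRNA. These averages are not lower limits. The background of replicate 3 of the non-silencing group, 102.5, exceeded every TCF7L1 signal of NODAL. Replicate 2 of the TCF7L1 group, at 95.68, lay below its own background of 96.05. The other 10 ran from -0.12 in GDF3 to 0.58 in BMP4 (SE 0.11, adjusted p = 0.228 by limma), both named after their values were seen. The median of the list was 0.10 with 9 of 11 above 0, beside 47.8% of all probe sets tested.

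No gene of the other lists passed in either direction between the siRNAs. Of 21 later streak, paraxial mesoderm and mesendoderm genes 12 lay above 0 (median 0.03). SNAI2, a repressor of E-cadherin, had the smallest p of this list at -0.43 (SE 0.15). All 3 of its TCF7L1 samples lay below the non-silencing samples, as in 3.12% of the probe sets tested. The Notch ligand gene DLL3 followed at -0.37 (SE 0.15). Of 12 tested members of the T-box family other than the 3 above, 9 lay above 0 (median 0.07), with TBX20 at 0.12 (SE 0.10) and TBX4 above background on no array. Of 15 tested FGF ligands and receptors 7 lay above 0 (median -0.02), with FGF19 at 0.32 (SE 0.13) and FGF20 at 0.17 (SE 0.09). Of 16 tested LIM and homeobox relatives 11 lay above 0 (median 0.04), with OTX2 at 0.37 (SE 0.12). LHX4 was above background on no array, at 65.33 to 81.24 after TCF7L1 siRNA and 49.88 to 55.82 after the non-silencing siRNA. All of these had an adjusted p of 1.0 by limma. OTX2, a homeobox factor of epiblast and anterior ectoderm, had 2086, 2014 and 2550 after TCF7L1 siRNA and no more than 1844 in any other sample. Of all probe sets tested, 1.88% were higher without overlap between the siRNAs and 6.43% against no siRNA.

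Between the 2 control groups no gene of the 5 lists passed by limma, and the medians were -0.05 for the inducers, 0.08 for the later genes, 0.13 for the T-box family, 0.00026 for the FGF genes and 0.12 for the LIM and homeobox relatives. With array spread in the model they were -0.03, 0.02, 0.02, -0.02 and 0.0036. Against no siRNA, NODAL alone passed among the 5 lists (a signal difference of 1.13 against a group below background, SE 0.09, adjusted p = 0.000983 by limma), and the medians were 0.10, 0.13, 0.18, 0.08 and 0.19, or 0.08, 0.02, 0.08, -0.02 and 0.04 with array spread in the model.

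**Figure D4:**
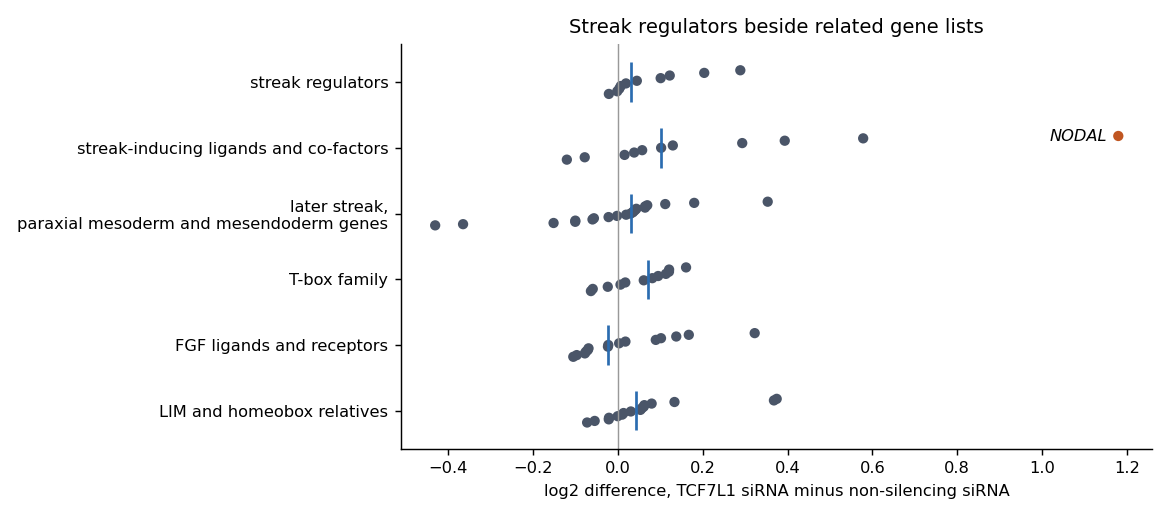
log2 differences of TCF7L1 siRNA minus non-silencing siRNA for the tested genes of each list, 1 point per gene, with a blue bar at the list's median and genes with an adjusted p under 0.05 in orange. NODAL, with a signal difference of 1.18 from control signals below background, stands apart, and the 10 streak regulators lie between -0.02 and 0.29.

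Likeness of pattern was examined for FGF17, the regulator of widest range among those above background on every array. Over the 9 arrays the genes whose centred log2 values lay closest to it, out of 19489 annotated probe sets, were KRTAP10-11, a keratin-associated protein gene of hair (root mean square distance 0.0422), GLTPD2 (0.0475) and DMRTA2 (0.0533). All 3 followed array spread, with r of -0.976, -0.969 and -0.959. KRTAP10-11 signals ran from 146.8 to 284, beside 150.6 to 286.8 for FGF17. A gene of hair thus gave signals at the level of FGF17, and how much of either signal is unspecific was not tested. The nearest other regulators were MESP1 (0.0934, place 131 among the candidates) and LHX1 (0.116, place 420).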

How the data were processed

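Transcripts were measured in 9 samples, 3 groups of 3, on 1 array each. Each array gave 1 linear intensity per probe set, deposited as the authors made it with Affymetrix Expression Console 1.1.1 and PLIER 2.0, per the submitters' processing notes; its background and normalization settings are not stated, and a low signal can hold unspecific hybridization. The 2 deposited tables held equal values (largest difference 0). Of 33297 probe sets 4201 controls were left out of tests. Annotation is the deposited one; its positions were taken as build 37 because 97.3% of 5959 probe sets with a build 37 position in their transcript text overlapped it.

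Signals were turned into log2(signal + 16). Tests took probe sets that exceeded their array's 25th percentile on 3 or more arrays (22784 probe sets, all 10 members included). One mean per group was fitted with limma 3.58.1 under R 4.3.3 (6 residual and 4.89 prior degrees of freedom), two-sided, with Benjamini-Hochberg adjustment over all tested probe sets. The median SE of a difference was 0.119. The procedure was tested on simulated data with noise drawn independently for each probe set and array. That test does not cover deviations shared by many probe sets of an array. Array number limits precision.

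The members, lists and tests were chosen with earlier results of these data known. Named genes were all members, TCF7L1, and from each list the genes past the threshold or else the 2 of smallest p between the siRNAs. Alternatives were the offset, quantile normalization, the filter, a fit of 2 groups, the replicate number as a block, array spread, and leaving out arrays. Whether replicate numbers pair the samples was not settled. Deviations of same-numbered samples of different groups correlated at r = -0.257 to 0.68, and those of differently numbered samples at r = -0.753 to 0.715. Of 9 samples 5 correlated best with a sample of their own number. The main fit took the samples as unpaired.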

Additional observations from a re-analysis of the deposited data

How the results depend on the processing

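No streak regulator passed under any of 19 alternatives in any comparison (555 values, smallest adjusted p 0.281). Many of these alternatives could not move the difference itself: the second deposited table, the filters, the replicate block, and the fit of 2 groups. Leaving out an array of the group not compared could not move it either. The sign changed in 47 of the 555 values, so this count makes the signs look steadier than they are. None of the 47 was a called value, and a value of changed sign had a size of at most 0.238. Most were differences under 0.10 in size, but LHX1 (0.19) and EVX1 (0.23) against no siRNA were among them. Between the siRNAs, LHX1 had -0.0015 with quantile normalization. With array spread as a covariate FGF8 had -0.0098, LHX1 -0.020 and FGF17 -0.027. Without the 2 arrays of narrowest spread EOMES had 0.0068 and FGF17 -0.012. Leaving out 1 array gave the following ranges: FGF8 -0.167 to 0.155, MESP1 -0.205 to 0.121, TBX6 -0.049 to 0.142, LHX1 -0.155 to 0.133, EOMES -0.10 to 0.066, FGF17 -0.238 to 0.177. Between the controls, MIXL1 had -0.018 with quantile normalization. With array spread as a covariate MIXL1 had -0.00059, GSC -0.068 and TBX6 -0.055, and without the 2 narrow arrays GSC had -0.024 and TBX6 -0.045. The ranges with 1 array left out were -0.042 to 0.072 for MIXL1, -0.024 to 0.106 for GSC, -0.045 to 0.146 for TBX6, -0.169 to 0.024 for T and -0.198 to 0.159 for EVX1. Against no siRNA, T had -0.016 with quantile normalization. With array spread as a covariate TBX6 had -0.025, LHX1 -0.0030, T -0.093 and EVX1 -0.025, and EVX1 had -0.0071 without the 2 narrow arrays. The ranges were -0.069 to 0.124 for T and -0.0071 to 0.398 for EVX1. The cause of these sign changes was not tested. The median of the 10 ran from -0.074 to 0.166 between the siRNAs, 0.049 to 0.177 between the controls and 0.080 to 0.311 against no siRNA with 1 array left out.

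The count of all probe sets past the threshold moved more. Between the siRNAs it was 6, with 11 under a replicate block, 25 with array spread as a covariate and 4 to 6 with 1 array left out. Against no siRNA it was 12, with 20 under a replicate block, 24 with array spread, 5 without the 2 narrow arrays and 3 to 15 with 1 array left out (3 without replicate 1 or 3 of the no siRNA group or replicate 3 of the TCF7L1 group, 5 without replicate 2 of the non-silencing group or 1 or 2 of the TCF7L1 group, 6 without replicate 2 of the no siRNA group, and 15 without replicate 1 of the non-silencing group). The replicate block changed no call of a regulator, and 5 of 9 samples correlated best with a sample of their own number. The count of 6 regulators above background in every group was 0 against the 95th percentile of the intron controls, which was 1443 or more on every array, and 10 against the 75th percentile of the olfactory receptor probe sets, and 6 to 7 with 1 array left out. A filter at the array median left 5 regulators tested. Signal over background limits what can be said of EVX1, TBX6, FGF8 and MIXL1, and of T, which exceeded it by a narrow margin. LHX1 exceeded it on every array, but by less than EOMES, GSC, MESP1 and FGF17.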
